A study of Mus musculus with 6 samples.

Results

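The Hox genes of clusters A to D made up 39 of the 34745 genes listed for these libraries. They were taken by name, as every symbol made of Hoxa, Hoxb, Hoxc or Hoxd and a number, and were ordered by position along their cluster. The family was chosen by measured values: it was proposed after *Hoxa7*, *Hoxb5*, *Hoxb6*, *Hoxb7* and *Hoxb8* had been seen with at least 20 counts in every library labelled KO and at most 3 in every library labelled WT. The differences between the labels within the family are therefore a description: no p-value is given for its members, and the number of them past the threshold of the fit over all genes is printed only beside the share of all genes.

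RNA-seq was performed on cardiac fibroblasts from the left ventricle of male mice of 8 to 10 weeks, 7 days after myocardial infarction (MI) by permanent ligation of the left anterior descending artery, in 3 libraries labelled KO and 3 labelled WT. The KO mice carried a CRISPR/Cas9 deletion in *Kdm5b*, the gene of a histone H3 lysine 4 demethylase, which removes the part encoding the catalytic JmjC domain and is not limited to a cell type, and the WT mice were their littermates. All 6 libraries came from infarcted hearts, so the comparison holds no uninjured group. The number of animals behind a library is not given in the sources used here, and p-values then measure only the spread between these libraries, which may be technical. *Kdm5b* itself had 1198, 1424 and 1628 counts in KO-1, KO-2 and KO-3 and 1545, 1883 and 1734 in WT-1, WT-2 and WT-3, a log2 fold change of -0.22 ± 0.07 (SE, n = 3 per label, edgeR adjusted p = 0.0574). It passed the threshold with upper quartile scaling (adjusted p = 0.0324), without WT-1 (0.0188) and with the replicate number as a block (0.0271), and over all alternatives the adjusted p ran from 0.0188 to 0.175. By Q-PCR and immunoblot the paper found next to no *Kdm5b* mRNA or protein in cardiac fibroblasts isolated from KO mice. Here the scaled count in KO libraries was 0.861 of that in WT libraries, and the reason for this difference was not tested. A count over the whole gene does not check a deletion inside it, so the libraries are named by their labels.

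Hox genes encode homeodomain transcription factors that give cells of the embryo their position along the head-to-tail axis. In mammals they lie in 4 clusters on different chromosomes, and members at the same place in each cluster share a paralog number. Low numbers are used first and farthest forward, high numbers later and farther back, so that position in the cluster mirrors position in the body. Many adult fibroblasts and endothelial cells keep part of the Hox pattern of the body region in which they arose, and cells of the heart derive from an anterior region where low-numbered genes act under the control of retinoic acid. Polycomb proteins hold unused stretches of a cluster silent, and Trithorax and MLL proteins keep used stretches active through methylation of histone H3 lysine 4.

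On the coordinates of the deposited table (mouse mm10), cluster A held 11 genes on the minus strand of chr6:52155590-52260880, cluster B held 10 on the plus strand of chr11:96194316-96368256, cluster C held 9 on the plus strand of chr15:102921103-103036852, and cluster D held 9 on the plus strand of chr2:74668310-74765142. RefSeq promoter windows (GRCm38.p6, 250 bases before to 50 bases after an annotated start) were at hand for 22 of the 39 genes, with 24 windows in all. Windows of 4 genes that span the range of levels are shown, with each CG dinucleotide in capitals. *Hoxb8* (chr11:96281655-96281954, plus strand) and *Hoxa7* (chr6:52218524-52218823, minus strand, a start inside the gene body as deposited) were counted almost only in KO libraries. *Hoxb4* (chr11:96318017-96318316, plus strand) was counted in every library and *Hoxa13* (chr6:52260831-52261130, minus strand) in none.
Hoxb8: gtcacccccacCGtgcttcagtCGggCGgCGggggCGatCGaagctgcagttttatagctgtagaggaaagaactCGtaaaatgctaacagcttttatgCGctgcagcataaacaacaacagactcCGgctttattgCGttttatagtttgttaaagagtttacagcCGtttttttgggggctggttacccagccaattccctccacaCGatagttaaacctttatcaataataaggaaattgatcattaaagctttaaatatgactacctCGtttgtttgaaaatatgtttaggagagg
Hoxa7: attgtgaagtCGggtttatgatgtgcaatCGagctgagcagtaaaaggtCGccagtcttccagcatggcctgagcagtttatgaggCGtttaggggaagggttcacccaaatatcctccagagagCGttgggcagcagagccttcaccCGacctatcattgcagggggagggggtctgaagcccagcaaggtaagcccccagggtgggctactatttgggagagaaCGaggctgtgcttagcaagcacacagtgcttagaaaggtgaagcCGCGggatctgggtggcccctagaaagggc
Hoxb4: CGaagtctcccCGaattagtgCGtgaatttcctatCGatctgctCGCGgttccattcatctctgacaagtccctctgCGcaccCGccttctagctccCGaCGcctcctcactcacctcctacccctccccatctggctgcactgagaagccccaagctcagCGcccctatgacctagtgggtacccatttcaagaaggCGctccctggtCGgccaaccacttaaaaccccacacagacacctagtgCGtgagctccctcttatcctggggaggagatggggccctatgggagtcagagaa
Hoxa13: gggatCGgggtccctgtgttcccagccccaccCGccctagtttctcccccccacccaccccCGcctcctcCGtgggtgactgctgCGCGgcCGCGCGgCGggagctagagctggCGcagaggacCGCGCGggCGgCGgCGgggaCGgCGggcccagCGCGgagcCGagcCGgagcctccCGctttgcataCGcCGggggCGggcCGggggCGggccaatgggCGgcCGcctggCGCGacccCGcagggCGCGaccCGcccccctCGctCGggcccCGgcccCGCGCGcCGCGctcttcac

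Over these 300 bases the *Hoxb8* window held 13 CG, *Hoxa7* 9, *Hoxb4* 14 and *Hoxa13* 45, the highest number of the 24 windows. The median was 14.5 CG in the Hox windows and 7 in all 32851 windows of the table. The letters TATAAA, searched on both strands as all motifs here, occurred 2 times in the *Hoxb8* window and were in 4 of the 24 Hox windows (*Hoxa10*, *Hoxb8*, *Hoxd4* and *Hoxd13*), against 13.6% of all windows. TGATTGAT, the letters of a shared Hox and Pbx site, was in 2 Hox windows (*Hoxa2* and *Hoxd11*) and in 0.746% of all windows. TGACAG, the letters of a Meis site, was in 2 (*Hoxa2* and *Hoxa3*) and in 19.2% of all, and TAATTA, the core letters bound by many homeodomains, was in both windows of *Hoxd11* and in 5.29% of all. These matches are a description of the windows. The *Hoxa13* and *Hoxd13* windows, of genes at or near 0, were the 2 richest in CG.

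The WT libraries held most of their Hox counts in genes of paralog groups 1 to 4, and the KO libraries held these groups at a higher sum and, in clusters A, B and D, a stretch of middle numbers that WT libraries counted little or not at all. As counts per 1000000 after TMM scaling, a correction of the library totals (CPM), the 39 genes summed to 21.1 ± 0.606 in WT and 83.9 ± 5.80 in KO libraries (SD, n = 3 each), a ratio of 3.98. Genes of paralog groups 1 to 4 summed to 17.9 ± 0.439 CPM in WT and 33.3 ± 1.82 CPM in KO libraries, a ratio of 1.86. Those of groups 5 to 10 summed to 2.35 ± 0.281 and 49.7 ± 4.37 CPM, a ratio of 21.2. These groups hold all 5 genes that the family was chosen by, so this ratio and that of all 39 are set in part by the choice. In bulk RNA, more cells of a type that use these genes and more RNA per cell cannot be told apart.

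**Figure D1:**
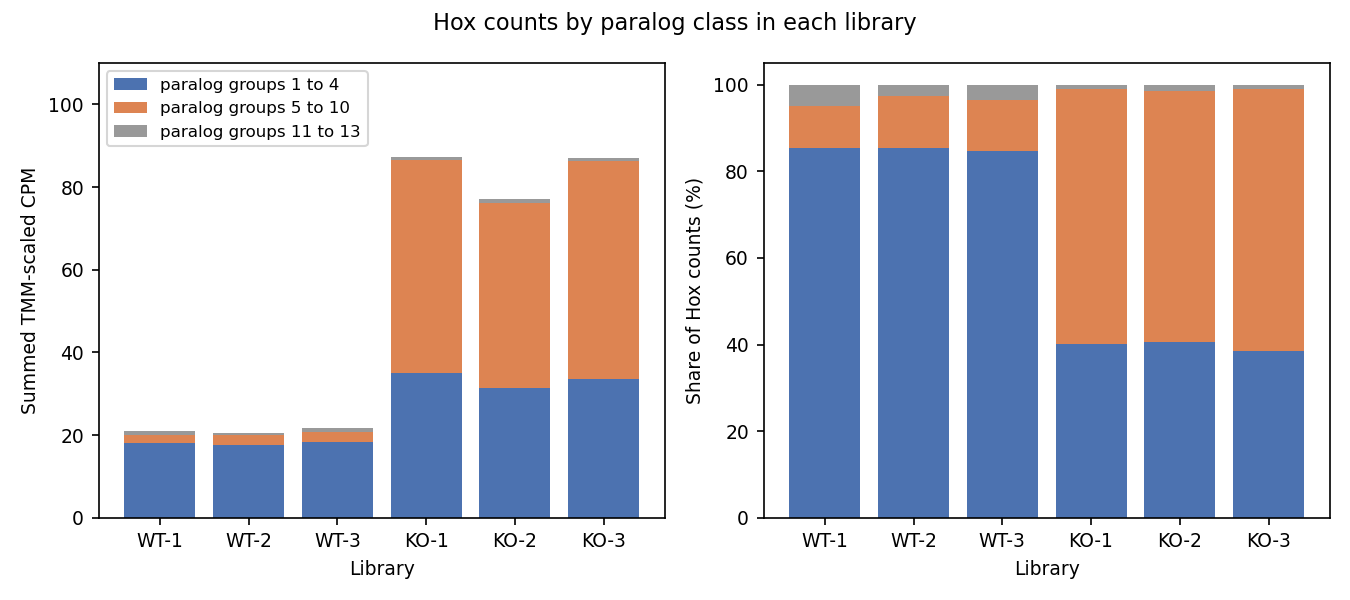
Summed TMM-scaled CPM of Hox genes (left) and share of Hox counts in percent (right), with 1 bar per library stacked by paralog class. Groups 5 to 10 make up 9.63% to 12% of Hox counts in the WT libraries and 57.9% to 60.6% in the KO libraries. They hold all 5 genes that the family was chosen by, which sets part of this gap.

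By share of all Hox counts within a library, groups 1 to 4 held 85.4%, 85.3% and 84.6% in WT-1, WT-2 and WT-3, and 40.1%, 40.7% and 38.5% in KO-1, KO-2 and KO-3. The exact binomial 95% intervals ran from 80.0% to 89.2% over the WT libraries and from 35.9% to 43.8% over the KO libraries, and cover counting error only. Within a label the libraries differed little. Between labels the shares lay far apart, in part through the genes that the family was chosen by. Groups 11 to 13 summed to 0.793 ± 0.252 CPM in WT and 0.854 ± 0.171 CPM in KO libraries, nearly all of it from *Hoxc13*.

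All 39 genes can be placed by their counts. In all 6 libraries 11 genes were at 0: *Hoxa11*, *Hoxa13*, *Hoxb13*, *Hoxc8*, *Hoxc9*, *Hoxc10*, *Hoxc11*, *Hoxc12*, *Hoxd1*, *Hoxd11* and *Hoxd12*. A count of 0 allows up to 3 counts per library, or 0.193 to 0.246 CPM at these depths. Another 10 genes had counts but fewer than 20 in every library, at most 16. The other 18 genes reached 20 counts in at least 1 library. At least 20 counts in every library of a label were met by 16 genes in KO and by 4 in WT, among them *Hoxb2*, *Hoxb3* and *Hoxb4*.

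The filter on low counts left 20 of the 39 genes in the edgeR fit. Of these, 19 had an adjusted p under 0.05 with a higher level in KO libraries, 0 with a lower level (also 0 at an unadjusted p under 0.05 and with DESeq2), and *Hoxc13* did not pass. Over all 14084 genes tested, 17.7% were called higher and 12.5% lower, and since the family was chosen on this contrast nothing is read from its share. All 20 passed the filter of 0.697 CPM in every KO library, whereas only 5 passed it in every WT library (among them *Hoxa3*, *Hoxb2*, *Hoxb3* and *Hoxb4*) and 12 in none, so most entered the fit through the group where they were high. Every KO library lay above every WT library for 19 of the 20 Hox genes tested and below for 0, against 24.7% and 22.4% of all genes tested. Over all 39 genes, tested or not, these counts were 20 and 1. The count of 19 was 15 without KO-3 and 17 with DESeq2, where 2021 and 2265 of all genes were called higher.

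**Figure D2:**
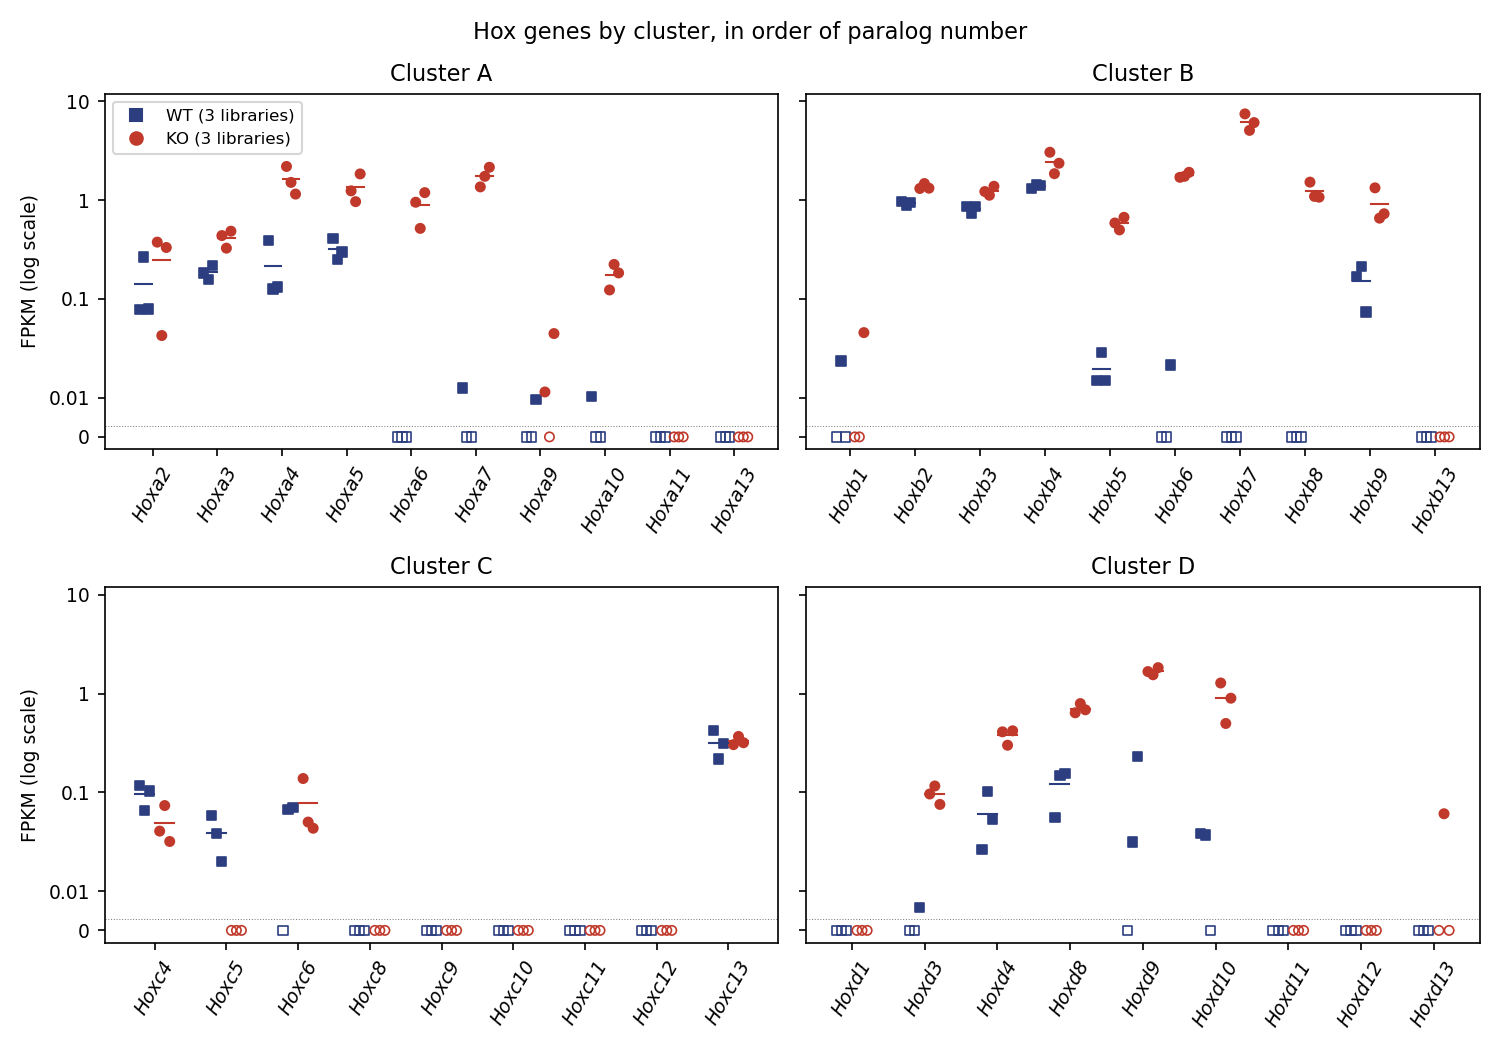
FPKM (fragments per kilobase, scaled by library total) of Hox genes in each library on a log scale, by cluster and in order of paralog number, with WT as squares and KO as circles. Open symbols at the base mark libraries at 0 and horizontal lines are means of labels without a 0. In cluster B the WT libraries are near 1 FPKM from *Hoxb2* to *Hoxb4* and at or near 0 from *Hoxb5* to *Hoxb8*, where the KO libraries lie between 0.499 and 7.46 FPKM.

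Cluster B carried the most Hox counts of the 4 clusters in every library and showed a sharp step in WT libraries. Its sum was 13.6 ± 0.319 CPM in WT and 46.6 ± 5.17 CPM in KO libraries. In WT libraries the 4 genes after *Hoxb4* (*Hoxb5*, *Hoxb6*, *Hoxb7* and *Hoxb8*) summed to almost no counts, and the gap between the bodies of *Hoxb4* and *Hoxb5* is 12.1 kb. In KO libraries all 4 were counted. These 4 are among the genes that the family was chosen by, so the step restates that choice.

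*Hoxb7* (ENSMUSG00000038721, chr11:96286623-96290162), a trunk-patterning gene, had 149, 112 and 155 counts in KO-1, KO-2 and KO-3 and 0 in each WT library. Against a floor of 3 counts per WT library it was at least 48.7-fold higher in KO libraries. Its level of 6.21 ± 1.19 FPKM (fragments per kilobase, scaled by library total and comparable between genes) was the highest of the family, and 42.1% of the genes tested had a higher mean in KO libraries, where the median gene had 4.58 FPKM. In the KO libraries it was thus close to the middle of the genes tested, while no WT library held a single count.

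*Hoxb8* (ENSMUSG00000056648, chr11:96281905-96285315), known from trunk patterning and from myeloid progenitors, had 81, 64 and 73 counts in KO libraries and 0 in each WT library, at least 25.7-fold higher. *Hoxb6* (ENSMUSG00000000690, chr11:96292476-96301569), a gene of the trunk and lateral mesoderm, had 67, 76 and 96 counts against 0, 0 and 1, a ratio of summed counts of 250 with an exact 95% interval of 44.5 to 9929 that covers counting error only. *Hoxb5* (ENSMUSG00000038700, chr11:96303336-96306121), known from neural crest of the gut and from blood stem cells, had 33, 31 and 48 counts against 1, 2 and 1, a ratio of 29.3 (11.1 to 110). All 3 genes were separate between labels in every library, and the width of the intervals reflects how few WT fragments there were.

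*Hoxb9*, the next gene toward the far end and active in the thoracic region, broke the step. It had 46, 25 and 32 counts in KO-1, KO-2 and KO-3 and 7, 9 and 3 in WT-1, WT-2 and WT-3, a log2 fold change of 2.50 ± 0.44 (SE). WT libraries therefore held *Hoxb9* fragments beyond 4 nearly silent neighbours. *Hoxb13*, 74 kb farther, was at 0 in all 6 libraries.

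The anterior genes of cluster B were counted in every library. *Hoxb4*, an anterior gene also studied in blood stem cells, had 94, 63 and 93 counts in KO and 48, 55 and 51 in WT libraries, or 2.42 ± 0.600 and 1.38 ± 0.0738 FPKM, a log2 fold change of 0.77 ± 0.20. *Hoxb3* had 88, 89 and 127 against 75, 65 and 74 counts (0.56 ± 0.15), and *Hoxb2*, a hindbrain gene, 75, 93 and 96 against 66, 62 and 64 (0.53 ± 0.14). The labels did not overlap in CPM for any of these 3 genes, but the shifts were small beside those of their neighbours. *Hoxb1*, the gene of the fourth hindbrain segment, had 0, 0 and 2 counts in KO and 0, 1 and 0 in WT libraries.

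Cluster A repeated the pattern at a lower level. Its sum was 4.81 ± 0.205 CPM in WT and 24.4 ± 2.92 CPM in KO libraries. WT libraries held the anterior genes up to *Hoxa5* and nearly nothing beyond, and KO libraries went on to *Hoxa7* and, at a lower level, *Hoxa10*. *Hoxa7* is also among the genes that the family was chosen by.

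*Hoxa7* (ENSMUSG00000038236, chr6:52214491-52221854), a trunk gene and the paralog of *Hoxb7*, had 91, 128 and 183 counts in KO-1, KO-2 and KO-3 and 1, 0 and 0 in WT libraries, a ratio of summed counts of 421 (exact 95% interval 75.1 to 16673). The 2 genes of paralog group 7 together summed to 19.8 ± 1.90 CPM in KO and 0.0233 ± 0.0404 CPM in WT libraries, where this 1 count was the only one. *Hoxa6*, a gene of the rib-bearing region, had 10, 6 and 16 counts in KO libraries and 0 in each WT library, at least 3.66-fold higher, and did not pass the filter. *Hoxa10*, known from the lumbar region and the uterus, had 10, 20 and 19 counts against 1, 0 and 0, a ratio of 51.3 (8.79 to 2068). *Hoxa9*, a gene of blood progenitors that lies between them, stayed low with 1, 0 and 5 counts in KO and 0, 0 and 1 in WT libraries.

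Genes at the other end of cluster A were shared by both labels. *Hoxa3*, which is needed for thymus and parathyroid, had 34, 28 and 48 counts in KO and 17, 15 and 20 in WT libraries, a log2 fold change of 1.13 ± 0.26 (SE). *Hoxa4*, a gene of the neck region, had 42, 32 and 28 against 9, 3 and 3 (2.82 ± 0.46, and 3.54 without WT-1), and *Hoxa5*, which is needed for lung and airway, had 28, 24 and 53 against 11, 7 and 8 (2.05 ± 0.35). The fitted differences of *Hoxa4* and *Hoxa5* were thus larger than that of *Hoxa3*, and these genes lie beside the genes that WT libraries hardly counted. *Hoxa2*, a gene of the second pharyngeal arch, had 8, 1 and 9 counts against 2, 7 and 2, with the labels overlapping. The body of *Hoxa3* as deposited spans those of *Hoxa4*, *Hoxa5* and *Hoxa6* on the same strand, so reads of these genes may have been divided by rules that are not given in the sources used here.

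Cluster D had the lowest level of the 3 active clusters in WT libraries and the largest ratio. Its sum was 1.19 ± 0.611 CPM in WT and 11.6 ± 0.528 CPM in KO libraries, a ratio of 9.80, and 5 of its 9 genes had at least 10 counts in every KO library.

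*Hoxd9*, which acts with *Hoxd10* in the lumbar spinal cord and hindlimb, had 43, 44 and 60 counts in KO-1, KO-2 and KO-3 and 0, 1 and 7 in WT-1, WT-2 and WT-3, a log2 fold change of 4.20 ± 0.58 (SE). Its WT libraries differed among themselves, from none to 7 counts, and without WT-3, which held 7 of the 8, the fitted value was 6.36. *Hoxd10* had 28, 12 and 25 counts against 1, 1 and 0, a ratio of summed counts of 34.0 (exact 95% interval 9.05 to 287), and *Hoxd8*, a trunk gene, had 38, 52 and 52 against 4, 11 and 11 (2.50 ± 0.33). In both genes every KO library lay above every WT library.

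*Hoxd4*, a gene of the neck and hindbrain, had 26, 21 and 34 counts in KO and 2, 8 and 4 in WT libraries, a log2 fold change of 2.57 ± 0.42 (SE), and 3.16 without WT-2. *Hoxd3*, whose body as deposited overlaps that of *Hoxd4* on the same strand, had 12, 16 and 12 counts against 0, 0 and 1, a ratio of 41.9 (7.10 to 1696). Reads from these neighbours may have been shared. *Hoxd13*, which patterns the digits, had 0, 2 and 0 counts in KO libraries and 0 in each WT library, and *Hoxd1*, *Hoxd11* and *Hoxd12* were at 0 throughout.

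Cluster C stood apart from the other 3. It summed to 1.23 ± 0.174 CPM in KO and 1.47 ± 0.296 CPM in WT libraries, and the labels overlapped. Its middle genes *Hoxc8*, *Hoxc9* and *Hoxc10*, paralogs of the genes counted in KO libraries elsewhere, were at 0 in all 6 libraries. *Hoxc13*, the gene of hair and nail keratins, had 9, 12 and 12 counts in KO and 15, 8 and 11 in WT libraries, a log2 fold change of 0.02 ± 0.35 (SE). *Hoxc4* had 2, 4 and 2 against 7, 4 and 6 counts, *Hoxc6* had 5, 2 and 2 against 0, 3 and 3, and *Hoxc5* was the 1 gene of the family with every KO library below every WT library, at 0, 0 and 0 against 3, 2 and 1. *Hoxc13* was the only gene of the cluster that passed the filter and could be tested, and the other counts are too low to compare. The body of *Hoxc5* as deposited spans those of *Hoxc6*, *Hoxc8* and *Hoxc9*.

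**Figure D3:**
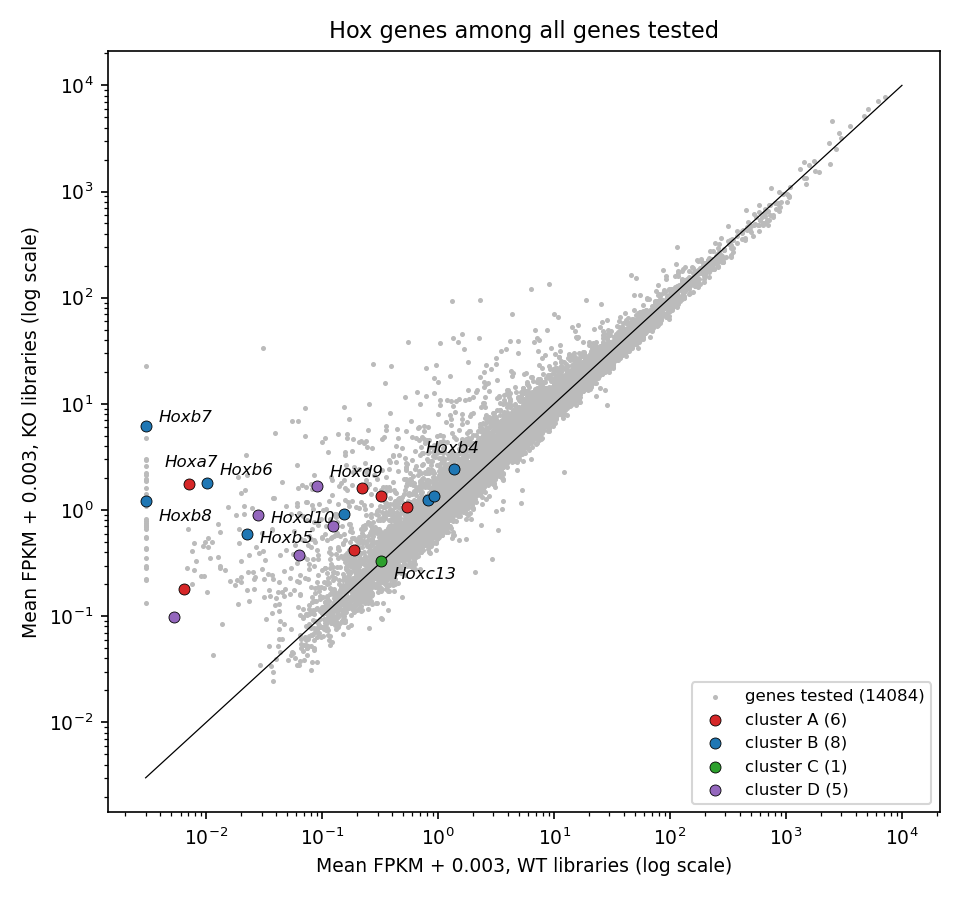
Mean FPKM in KO against WT libraries (log axes, 0.003 added so that 0 can be drawn) for the 14084 genes tested in grey and the 20 Hox genes tested in color by cluster, with equality as a line. *Hoxb7* and *Hoxb8* sit at the left edge with 0 in all WT libraries and *Hoxc13* lies on the line.

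The fitted log2 fold changes of the 20 Hox genes in the fit ran from 0.02 to 10.16, and those at the upper end belong to genes without WT counts and are not bounds. No median over them is read, since 12 of the 20 passed the filter in no WT library. At least 20 counts in every KO library with at most 3 in every WT library were found for 45 genes of the whole table, 5 of them the Hox genes named at the start, and the reverse was found for 0 genes. The rule that singled out the family thus had no counterpart in the other direction.

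By level, the order of the leading genes in WT libraries was *Hoxb4* at 1.38 ± 0.0738 FPKM, *Hoxb2* at 0.926 ± 0.0452 and *Hoxb3* at 0.818 ± 0.0795 (SD, n = 3). *Hoxb4* stood clear of the others, whereas *Hoxb2* and *Hoxb3* lay within the sum of their SDs. In KO libraries *Hoxb7* led, followed by *Hoxb4* at 2.42 ± 0.600, *Hoxb6* at 1.78 ± 0.110, *Hoxa7* at 1.75 ± 0.394, *Hoxd9* at 1.69 ± 0.140 and *Hoxa4* at 1.62 ± 0.530 FPKM. From *Hoxb4* to *Hoxa4* the neighbours in that order did not differ beyond their spread, and only *Hoxb7* stood clear. The highest anterior gene of the WT libraries was thus second in the KO libraries, behind a gene that WT libraries did not count.

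The spread among the KO libraries differed from gene to gene. Over the 19 genes called, the highest KO library was between 1.13 and 2.55 times the lowest in CPM, with a median of 1.45, and the 95% counting interval of that ratio left out 1 for 8 of the 19, where the extremes were picked after the values were seen. *Hoxa7* was highest in KO-3 and lowest in KO-1, with a coefficient of variation of 22.6% where counting alone gives 8.64%, while its paralog *Hoxb7* was highest in KO-1 and lowest in KO-2, with 18.7% against 8.49%. *Hoxb9* varied by 40.6% against 17.1% and *Hoxd10* by 43.5% against 21.5%, both highest in KO-1. *Hoxb6* (6.22% against 11.2%), *Hoxd9* (8.03% against 14.3%) and *Hoxb2* (7.28% against 10.7%) varied by no more than counting gives. Separate libraries exceed counting noise as a rule, so these spreads describe single genes and were not tested as a difference in the mixture. Summed Hox levels were close, at 87.4, 77.2 and 87.1 CPM in KO-1, KO-2 and KO-3.

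The deposited rows that lie between Hox genes are antisense and other noncoding transcripts for the most part, and were not used to choose the family. Of 22 such rows, 14 had a count and 3 passed the filter, of which 1 was called higher by edgeR and 0 lower (also 0 at an unadjusted p under 0.05 and with DESeq2). Over all genes tested these shares were 17.7% and 12.5%, and from 3 rows nothing is read. *Gm28230* (chr2:74726728-74747918) had 25, 10 and 30 counts in KO and 0, 1 and 0 in WT libraries, a ratio of 68.1 (exact 95% interval 11.8 to 2730, edgeR adjusted p = 0.00177), and overlaps *Hoxd3* and *Hoxd4* on the same strand, so it is not independent of them.

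*Hotairm1*, an antisense transcript of cluster A, had 14, 14 and 17 counts in KO and 9, 15 and 12 in WT libraries, and did not pass (log2 fold change 0.39 ± 0.30, edgeR adjusted p = 0.368). *Hoxb3os*, antisense to *Hoxb3*, had 27, 19 and 16 against 9, 7 and 15 counts and did not pass (1.08 ± 0.42, adjusted p = 0.0869). Both sit at the anterior end, and without the counting rule for strand their reads cannot be told apart from those of the Hox gene opposite. Among rows outside the test, *Hoxaas3* had 6, 5 and 3 counts and *Hoxd3os1* 10, 3 and 7 in KO libraries with 0 in each WT library, whereas *Hoxaas2* had 0, 1 and 1 against 7, 3 and 5. *Hotair*, *Haglr*, *Hoxb5os* and *Hoxa11os* were at 0 in all 6 libraries.

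Most genes just outside the clusters were not tested or not called. Among the 40 rows taken as the 5 nearest on each side of each cluster, 12 were tested, 3 were called higher and 1 lower, a count near the shares over all genes (17.7% and 12.5%) that is no result about these rows. Next to cluster A, *Skap2*, an adaptor protein of blood cells, had 559, 584 and 709 counts in KO and 456, 446 and 438 in WT libraries (log2 fold change 0.53 ± 0.06, edgeR adjusted p = 5.18e-04), and *Snx10*, a sorting nexin, had 813, 611 and 870 against 547, 546 and 669 (0.45 ± 0.14, adjusted p = 0.0461). Next to cluster B, *Ube2z*, a ubiquitin-conjugating enzyme, had 1997, 2104 and 2546 against 2033, 1985 and 1927 (0.23 ± 0.05, adjusted p = 0.00776). Next to cluster C, *Calcoco1*, a coactivator and autophagy receptor, had 917, 1080 and 1247 against 1331, 1250 and 1265 (-0.18 ± 0.06, adjusted p = 0.0479).

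None of the 4 called neighbours differed by more than 0.53 on the log2 scale. *Mtx2* beside cluster D (0.10 ± 0.06, edgeR adjusted p = 0.234) and *Lnp* (-0.27 ± 0.13, adjusted p = 0.171), its other neighbour, did not pass, nor did *Atp5g2* beside cluster C (-0.78 ± 0.26, adjusted p = 0.0552). *Calcoco1* lost its call without any 1 of the 6 libraries, with DESeq2, library size scaling, no filter, the replicate block and both limma fits on FPKM. *Snx10*, whose labels overlapped, lost its call without KO-1, KO-3, WT-1 or WT-2, with upper quartile scaling and with both limma fits. Without KO-2, 5 neighbours were called higher. Of the rows that did not pass the filter, 2 had no overlap between the labels, in opposite directions, and are named here because of those values. *Gm13652*, a noncoding row beyond *Mtx2*, had 24, 8 and 13 counts in KO and 0, 2 and 0 in WT libraries, a ratio of summed counts of 23.6 (exact 95% interval 6.16 to 201). *Halr1*, a noncoding row beside the anterior end of cluster A, had 1, 6 and 3 against 21, 10 and 11, a ratio of mean CPM of 0.247. *Evx1* and *Evx2*, the homeobox genes beside the posterior ends of clusters A and D, were at 0 in all 6 libraries. So was *Hoxa13*, the last gene of cluster A, whereas *Hoxd13*, the last of cluster D, had 2 counts in KO-2.

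Genes that control Hox clusters or act with Hox proteins were called in both directions, at small sizes. Over 6 lists of 96 genes, 85 were tested, 17 were called higher and 7 lower at edgeR adjusted p under 0.05, against 17.7% and 12.5% of all genes tested. Their median difference was 0.00 on the log2 scale. The count called higher was 9 without WT-1 and 10 without WT-2. Under the scaling to cardiomyocyte and macrophage markers, which shifts the median of all genes by 0.38, 58 were called higher and 0 lower, against 8268 and 64 of all genes in place of 2488 and 1760.

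Of 32 Polycomb subunits tested, 8 were called higher, and 0 lower by edgeR, by DESeq2 or at an unadjusted p under 0.05. The share called higher is not far from the 17.7% of all genes, and nothing is read from it for the list. *Ezh1* (log2 fold change 0.61 ± 0.07, edgeR adjusted p = 5.85e-04) and *Ezh2* (0.46 ± 0.08, adjusted p = 0.00372), the methyltransferases of histone H3 lysine 27, were both higher in KO libraries, as were *Rybp* (0.93 ± 0.10), *Cbx6* (0.85 ± 0.06) and *Phf19* (0.96 ± 0.17). Among Trithorax, MLL and demethylase subunits 4 of 23 were higher, *Kmt2a* by 0.26 ± 0.07 (adjusted p = 0.0309), and 1 was lower, the H3 lysine 27 demethylase gene *Kdm6b* (-0.18 ± 0.05, adjusted p = 0.0411). The KDM5 family had 0 of 4 genes called by edgeR or DESeq2 and 1 (*Kdm5b*) at an unadjusted p under 0.05, with values between -0.22 and 0.13. No gene of the Polycomb or Trithorax lists passed the threshold with a change of more than 1 on the log2 scale.

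The inputs to the clusters and the cofactors had calls in both directions, in counts of few genes. As 17.7% of the genes in the fit were called higher and 12.5% lower, these counts are no result about a list. The retinoic acid pathway had 2 of 14 tested genes higher and 4 lower. Its receptor gene *Rara* was higher (0.59 ± 0.07, edgeR adjusted p = 5.92e-04), as was *Cyp26b1*, the gene of a retinoic acid degrading enzyme (0.97 ± 0.16, adjusted p = 0.00287), whereas *Aldh1a2*, the gene of the main synthesizing enzyme, was lower (-0.44 ± 0.06, adjusted p = 0.00119), as were *Aldh1a1* and *Crabp2* among others. Of the trunk inputs, *Cdx1*, *Cdx2*, *Cdx4* and *Wnt3a* were at 0 in all 6 libraries and *Gdf11* did not pass (-0.12 ± 0.15, adjusted p = 0.562). The TALE cofactors, which bind DNA with Hox proteins, had 2 of 9 higher (*Pbx2* and *Pknox1*) and 2 lower (*Meis2* and *Meis3*).

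Markers of other cell types moved with the labels in the same libraries. Over all genes tested 17.7% were called higher and 12.5% lower. Of 14 endothelial markers 13 were called higher by edgeR, and their summed level was 1690 to 2420 CPM in KO and 288 to 298 CPM in WT libraries, with none at 0. *Pecam1*, an endothelial surface gene, had 8792, 6857 and 9813 counts in KO and 606, 591 and 502 in WT libraries (3.98 ± 0.13, edgeR adjusted p = 1.94e-06). Of 12 fibroblast markers 10 were called lower, and the 12 together summed to 26800 to 31200 CPM in KO and 37500 to 39900 CPM in WT libraries. All 12 were counted, so that the labelled cell type was present in every library. Of 12 cardiomyocyte markers 7 were lower, and of 10 macrophage markers 1 was higher and 5 lower. Endothelial and fibroblast sums thus shifted in opposite directions alongside the Hox sums, and their part in the Hox levels was not tested.

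Genes of blood progenitors, which use several of the same Hox genes, summed to 976 to 1360 CPM in KO and 197 to 212 CPM in WT libraries, with 5 of 10 tested higher and 2 lower, beside 17.7% and 12.5% of all genes tested. The 5 were *Cd34*, *Procr*, *Ly6a*, *Gata2* and *Tal1*, all also used by endothelial cells, while *Runx1* and *Hlf* were lower, *Kit*, *Meis1* and *Mecom* did not pass and *Flt3* had at most 4 counts in any library. Of 10 mast cell genes 4 were tested and 2 were higher, *Tpsab1* and *Gata2*, with *Cpa3*, *Tpsb2* and *Fcer1a* at 0 in all 6 libraries. The 10 together summed to 50.9 to 53.3 CPM in KO and 17.9 to 21.9 CPM in WT libraries. Of 7 lung epithelium genes, *Sftpc*, *Sftpb*, *Scgb1a1* and *Nkx2-1* were at 0 as well, and *Sftpa1*, *Ager* and *Foxj1* were counted. The 7 summed to 2.95 to 4.58 CPM in KO and 1.78 to 3.21 CPM in WT libraries, and the 2 that were tested, *Sftpa1* (-0.31 ± 0.44) and *Ager* (0.68 ± 0.34), did not pass. The part of these cell types in the Hox levels was not tested.

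**Figure D4:**
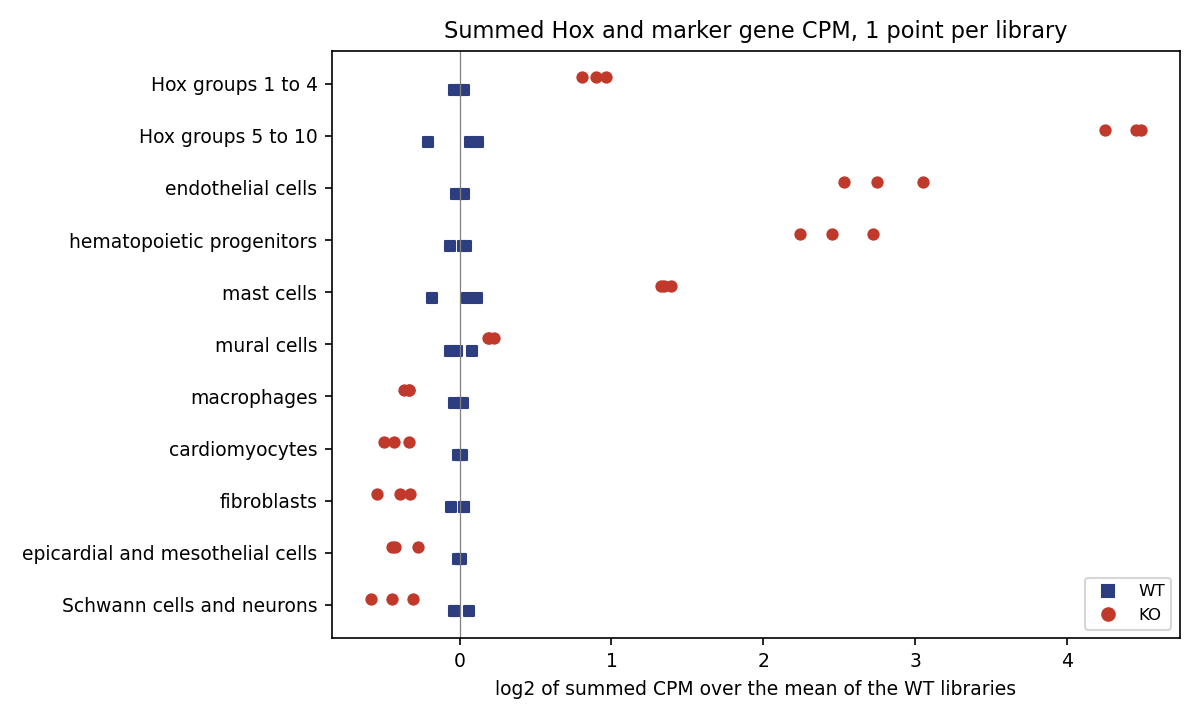
Summed CPM of 2 classes of Hox genes and of marker gene lists in each library, as log2 of the ratio to the mean of the WT libraries, with WT as squares and KO as circles. Hox groups 5 to 10 lie farthest to the right in the KO libraries, ahead of endothelial and blood progenitor markers, and fibroblast markers lie to the left of 0. This Hox class holds the 5 genes that the family was chosen by, so its lead over the marker lists is no result.

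The smallest library held 12025403 counts and the largest 15329427. No Hox gene exceeded 12.2 CPM in any library, and 11 of the 39 were at 0 in all 6. The labels were separated by the first principal component of all genes tested, with 73.2% of the variance, and 2488 genes were called higher and 1760 lower in all. With 3 libraries per label and low counts, the ratios above carry wide intervals, and the precision of each Hox value is limited by its own counts.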

How the data were processed

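Reads of 150 bases at most from stranded, oligo(dT)-enriched libraries were mapped by the authors to mm10 with HISAT2 at default settings, and the submitters' processing notes also name GRCm38.p4 and edgeR. The counting tool, annotation release and strand setting are not given in the sources used here. Each gene and library has a whole-number count, deposited without normalization, and a deposited FPKM value, which divides the count by gene length and library total. All per-sample columns were mapped to a library (0 left unmapped).

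The test was edgeR's quasi-likelihood test (edgeR 4.0.16, R 4.3.3) on the counts, two-sided, after filterByExpr and TMM scaling, with adjustment (Benjamini-Hochberg over the 14084 genes that passed the filter, of 20854 with a count), KO against WT in 6 libraries, with calls at an adjusted p under 0.05. The code was tested on simulated data. Folds against labels with 0 counts in all libraries used a floor of 3 counts per library, and those against at most 3 counts per library are ratios of summed counts per library total with exact conditional 95% intervals (scipy 1.17.1, Python 3.11.15).

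Values in every library are printed for Hox genes with at least 20 counts in 1 library. From other lists, called genes with a log2 fold change beyond 1 were named by rule (at most 6 per list), and other list genes were named after their values were seen, as were those noncoding rows not called. Members, lists and the marker scaling were chosen with earlier results of these data known. Alternatives were DESeq2 1.42.0, library size, upper quartile and marker scaling (setting the median ratio of cardiomyocyte and macrophage markers to 1), no filter, a filter at mean CPM 1, limma 3.58.1 on log2(FPKM + 1) and log2(FPKM + 0.1), a replicate block, a fold change above 2 in addition, and each library left out. Promoters came from RefSeq GRCm38.p6. Protein sequences were not used here. Some genes of the family and the lists are not reported here. The deposited loci equal those of GENCODE M21 for 80.8% of the rows listed in both.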

Additional observations from a re-analysis of the deposited data

How the results depend on the processing

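The count of 19 Hox genes called higher stayed between 15 and 20 and that of genes called lower at 0 under every alternative. Over all genes these counts ran from 844 to 8268 and from 38 to 2263. All 18 Hox genes with at least 20 counts in 1 library kept their direction wherever they were tested. Each of them had every KO library above every WT library in CPM, so leaving out a library could not turn it. As the family was chosen on this contrast, nothing is read from this. *Hoxa3*, *Hoxb2*, *Hoxb3* and *Hoxb4* lost their call in 16 fits between them, and the other 14 in none (*Hoxa3* without KO-3, *Hoxb3* without KO-3 or WT-2 and with DESeq2, *Hoxb4* without any 1 library but KO-2, and *Hoxb2* without any 1 library but KO-1, with DESeq2 and with the replicate block). The log2 ratio of summed Hox CPM was 1.99, was 1.97 to 2.06 without 1 library, and moved to 2.38 under marker scaling and to 2.32 on FPKM. Marker scaling gave 8268 genes higher and 64 lower, 58 and 0 regulators, 7 and 0 genes beside the clusters and 2 between Hox genes, and turned the log2 fold changes of *Kdm5b* (to 0.16) and *Calcoco1* (to 0.20). A fold change above 2 in addition left 844 genes higher and 38 lower, 1 and 0 regulators, and 0 and 0 beside the clusters. Beside the clusters, DESeq2, library size and the replicate block each left 0 genes lower and upper quartile 3. Without a filter 3 rows between Hox genes were higher, and at a mean CPM of at least 1 there were 0. Without 1 library, genes called lower numbered 1131 (without KO-3) to 1614, regulators called higher 9 (without WT-1) to 18, and genes beside the clusters 2 to 5 higher (5 without KO-2) and 0 (without KO-1 or KO-3) to 1 lower. The cause of these shifts was not tested. Whether the replicate numbers pair the libraries cannot be decided from 3 libraries per label. Deviations of libraries with the same number correlated at 0.0796, 0.0453 and 0.0476, and each KO library correlated best with its own number. The pairs with unlike numbers ran from -0.0486 to 0.00259. With the replicate block *Kdm5b* passed the threshold (-0.21, adjusted p = 0.0271), and 18 Hox genes were called higher, *Hoxb2* being the gene lost. Over all genes 2316 were then called higher and 1591 lower. Depth limits the genes under 20 counts, where 1 fragment decides a ratio.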

Other observations

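Other homeobox genes of the class that includes the Hox family gave few counts. Of 55 listed, 54 were in the table, 26 were at 0 in all 6 libraries and 12 were tested, of which 4 were called higher and 1 lower by edgeR, beside 17.7% and 12.5% of all genes tested. The median log2 fold change of the 12 was -0.27. *Dlx2*, a gene of the jaw and forebrain, had 12, 13 and 13 counts in KO and 1, 5 and 4 in WT libraries (log2 fold change 1.96 ± 0.47, SE, edgeR adjusted p = 0.0159). *Hhex*, used by endothelial and blood cells, had 72, 91 and 121 against 33, 34 and 34 (1.54 ± 0.17, adjusted p = 4.05e-04). *Msx1* (1.27 ± 0.23, adjusted p = 0.0044) and *Hlx* (1.01 ± 0.23, adjusted p = 0.0123) were the other 2, and *Meox1*, a gene of the somites, was lower (-0.43 ± 0.11, adjusted p = 0.0192).

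Transcription factors that mark regions of the heart were lower in KO libraries for 8 of 15 tested and higher for 1, *Nr2f2*, a gene of veins and atria (0.84 ± 0.08, edgeR adjusted p = 2.44e-04). *Tbx5*, a gene of the heart and forelimb, had 26, 34 and 40 counts in KO and 78, 63 and 68 in WT libraries (-0.9995 ± 0.18, adjusted p = 0.00447). Over all genes tested 12.5% were called lower and 17.7% higher. Of the factors that mark other body regions, 9 of 32 were tested, 3 were higher and 1, *Foxc2*, lower (-0.41 ± 0.09, edgeR adjusted p = 0.0120), with a median of -0.29. *Lhx6*, a gene of the jaw and of forebrain interneurons, had 203, 223 and 327 counts against 9, 6 and 15 (4.68 ± 0.25, adjusted p = 1.17e-05). *Lhx2* had 12, 18 and 27 against 0, 4 and 1 (3.47 ± 0.64, and 4.96 without WT-2, adjusted p = 0.00476), and *Pax2*, a kidney gene, had 17, 12 and 12 with 0 in each WT library, at least 4.88-fold higher.

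Some values drew attention after they were seen. *Suz12*, a core Polycomb subunit, had 376, 398 and 1067 counts in KO-1, KO-2 and KO-3 and 843, 854 and 832 in WT libraries, so that KO-1 and KO-2 were far below KO-3. *Atf7*, beside cluster C, had 540 counts in KO-2 and 1285 and 1579 in the other KO libraries.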
